A study of Mus musculus with 7 samples.

Results

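Plasminogen activation at the fibroblast surface was followed through 10 genes: the activators Plat and Plau, the zymogen gene Plg, the surface receptor genes Plaur, Anxa2 and S100a10, the clearance receptor gene Lrp1, and the inhibitor genes Serpinb2, Serpinf2 and Serping1. They were chosen by name, with earlier results of these data known, as array probe sets that carry 1 of these gene symbols and no other. Each gene had exactly 1 such probe set, so the 10 genes are 10 of 19937 single-symbol genes on the array. All 10 were among the 16801 genes tested, which had to exceed the 25th percentile of all probe sets on 2 or more arrays.

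Plasminogen is a liver-made zymogen that tissue plasminogen activator (Plat) and urokinase (Plau) cut to plasmin, a broad serine protease that dissolves fibrin and degrades matrix proteins. Urokinase works on cells through its anchored receptor (Plaur), and the heterotetramer of annexin A2 (Anxa2) and S100A10 (S100a10) holds plasminogen and tissue activator at the membrane. Inhibitors of the serpin family stop activators and plasmin, and the endocytic receptor LRP1 takes up the activators and their complexes with inhibitors. Fibroblasts are known to use this system to remodel matrix and to move through it.

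The arrays came from mouse embryonic fibroblasts, all spontaneously immortalised and all kept for 2 days in medium with fetal calf serum and no added treatment. Wild-type cells (3 arrays, clones 1 to 3) make tenascin-C, a large matrix glycoprotein encoded by Tnc. Knockout cells (2 arrays, clones 1 and 2) came from tenascin-C knock-out mice, and knockdown cells (2 arrays, clones 1 and 2) were wild-type fibroblasts that stably carry a tenascin-C hairpin RNA for RNA interference. Each array is 1 clone, a control hairpin is not analysed here, and the labels do not tie clones to separate animals. The p-values thus speak only of the spread among the clones used, which may be technical in part. The 2 knockout clones differed in the X-linked gene Xist, at 3.77 and 8.80, so their spread is not technical alone. In such bulk RNA, fewer cells of a kind and less RNA per cell cannot be told apart.

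The targeted gene and the cell type markers were checked first. Tnc had a mean log2 signal of 11.23 ± 0.296 in the 3 wild-type arrays, 8.28 ± 0.32 in knockout and 6.93 ± 0.573 in knockdown (± SD); where its probes lie relative to the deleted part is not known here. It passed limma's test in both (adjusted p = 0.042 and 0.0339), and did so in 6 of 17 alternatives. Leaving out any 1 array ended both calls, as did testing without the filter or only the compared groups, while over all 17 the log2 difference ranged from -3.17 to -2.72 for knockout and from -4.70 to -3.89 for knockdown. Fibroblast markers were strong, with a mean over 12 markers of 10.07 to 11.09 across the arrays. Ptprc, the pan-leukocyte gene, stayed at or below 4.23 and Alb, the hepatocyte albumin gene, between 3.87 and 4.10. Some other markers of these cell types lay above the median on all 7 arrays: Cd68 (5.59 to 5.88), Apoa1 (5.47 to 5.80) and Hnf4a (5.98 to 6.08). Mean log2 was 4.47 to 4.67 over 10 macrophage and blood markers and 4.57 to 4.76 over 7 hepatocyte markers. Among epithelial markers Krt19 reached 8.51. Sex-linked genes set 2 arrays apart: Xist was 8.80 on knockout array 2 and at most 3.77 elsewhere, and the Y-linked Uty was 3.14 on knockout array 2 and 4.98 on knockdown array 2 against 6.75 to 8.02 elsewhere. Results were therefore also computed without both of these arrays.

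Plat (probe set 10570855), the gene of tissue plasminogen activator, was higher on every tenascin-C deficient array than on any wild-type array. Its log2 signals were 7.92, 8.25 and 8.38 in wild type (array 1, 2 and 3), 9.33 and 9.16 in knockout, and 9.21 and 9.22 in knockdown. The 4 deficient arrays thus lay within 0.18 of each other and the lowest of them was 0.78 above the highest wild-type array. The mean difference from wild type was 1.06 ± 0.146 (SE, 95% confidence interval 0.70 to 1.42) in knockout and 1.03 ± 0.146 (0.67 to 1.39) in knockdown, on the log2 scale. Neither difference passed the limma test over all genes (adjusted p = 0.0712 and 0.111), so Plat is not called changed in either. In knockout the call turned on the setting: testing only genes above the array median gave an adjusted p of 0.0468, and centring each array on its median gave 0.0404. Over the other 15 settings it lay between 0.0704 and 0.271. Differences of larger size were found for 2.01% of genes tested in knockout and 0.982% in knockdown. Wild-type array 1 was the lowest, and without it the difference was 0.93 in knockout and 0.90 in knockdown. Fibroblast markers, summed on the linear scale over 12 genes, were higher in the same groups. The sums were 23480.5 to 32666.7 in wild type, 33882.7 to 34821.2 in knockout and 34519.1 to 36565.5 in knockdown. The mean log2 signal of these markers did not separate the groups. It was 10.07 to 11.09 in wild type, 10.69 to 10.72 in knockout and 11.01 to 11.03 in knockdown. By gene, 8 were higher and 4 lower in knockout, and 10 and 2 in knockdown. The part of these markers in the Plat result was not tested.

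Knockout and knockdown gave nearly the same Plat signal. Their means were 9.24 ± 0.125 and 9.21 ± 0.00987 (SD, n = 2 each), a difference of 0.03 ± 0.16 (SE) with a 95% confidence interval of -0.36 to 0.42 (limma adjusted p = 0.936). The interval leaves room for a 1.34-fold difference, so equal levels are not shown. Wild type and both deficient groups together differed by 1.05 ± 0.123 (SE, 3 against 4 arrays), with a limma adjusted p of 0.106.

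Plau, the urokinase gene, did not separate either deficient group from wild type. Its log2 signals were 8.54, 9.02 and 8.53 in wild type, 8.79 and 8.91 in knockout, and 8.63 and 8.56 in knockdown. All 4 deficient arrays fell between the lowest and the highest wild-type array, since wild-type array 2 stood above the rest. The difference was 0.16 ± 0.163 (SE) in knockout and -0.10 ± 0.163 in knockdown, with limma adjusted p of 0.709 and 0.837. The 95% confidence intervals, -0.24 to 0.55 and -0.50 to 0.30, allow at most a 1.47-fold and a 1.41-fold change, whereas those of Plat begin at 1.63-fold and 1.59-fold.

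Plg, which encodes the zymogen itself, gave signals close to background. Its 7 values ran from 4.13 to 4.36, between the 27.3th and 30.3th percentile of probe sets on their arrays and below the array median throughout. Hepatocyte markers, from the tissue that makes plasma plasminogen, summed on the linear scale over 7 genes, ranged from 200.4 to 215 in wild type, 199 to 206 in knockout and 213 to 222 in knockdown. The Plg difference was -0.06 ± 0.0791 (SE) in knockout and 0.12 ± 0.0791 in knockdown (limma adjusted p = 0.772 and 0.562). Both knockdown arrays (4.32 and 4.36) lay just above the highest wild-type array (4.30), at a level near background.

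**Figure D1:**
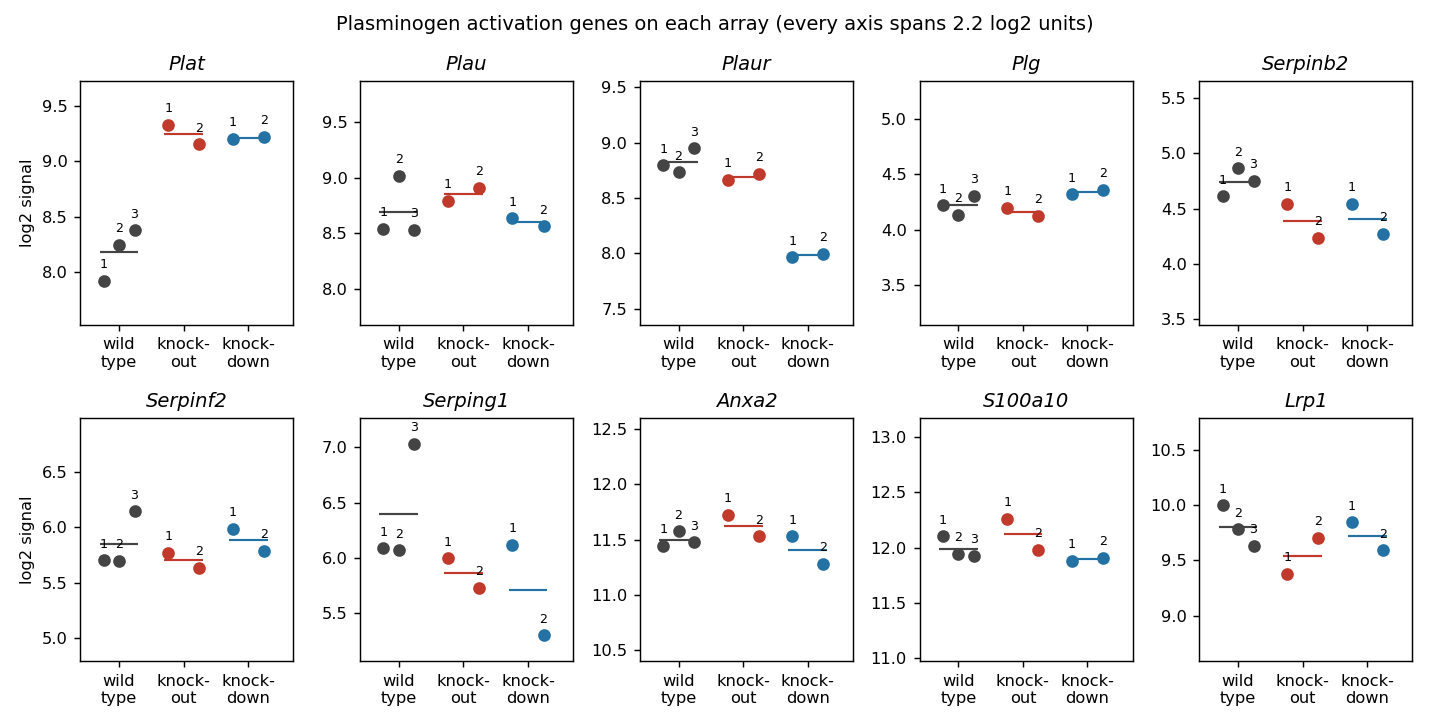
Log2 signal (vertical axis) of the 10 genes on each array, by group; points carry the array number, horizontal lines are group means, and every panel spans the same height, though panels start at different levels. Plat stands above 9.1 on all 4 deficient arrays and Plaur near 8.0 on the knockdown arrays only, while Plau, Anxa2, S100a10 and Lrp1 overlap between wild type and at least 1 deficient group.

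Plaur (probe set 10550906), the gene of the urokinase receptor, separated the knockdown from the other arrays. It stood at 8.79, 8.73 and 8.95 in wild type, 8.67 and 8.72 in knockout, and 7.96 and 8.0 in knockdown. The knockdown arrays lay 0.67 below the nearest other array, while the lower knockout array lay 0.07 below the lowest wild-type array. In knockdown the difference from wild type was -0.84 ± 0.0871 (SE, 95% confidence interval -1.06 to -0.63), a 1.79-fold lower signal with a limma adjusted p of 0.0928. In knockout it was -0.13 ± 0.0871 (-0.34 to 0.08, adjusted p = 0.558), and with both groups together -0.49 ± 0.0729 (adjusted p = 0.156). The gap between knockout and knockdown, which tests whether the effects differ, was 0.71 ± 0.0955 (0.48 to 0.94) with a limma adjusted p of 0.0543. None of these passed, but the last came close: it was 0.049 among genes above the array median and 0.0334 after centring, and between 0.0568 and 0.307 in the other 15 settings. Macrophages also express Plaur, and the macrophage and blood markers, summed on the linear scale over 10 genes, ranged from 243 to 278 in wild type, 272 to 291 in knockout and 249 to 256 in knockdown. Itgam lay between 3.91 and 4.11 throughout, whereas Lyz2, the macrophage lysozyme gene, stood at 4.03 to 4.25 in wild type, 5.59 and 4.81 in knockout, and 3.96 and 4.26 in knockdown. Epithelial markers, summed over 8 genes, were at 550.2 to 650.3 in wild type, 297 to 619 in knockout and 316 to 357 in knockdown. Krt19, a simple-epithelial keratin in that list, stood at 8.22 to 8.51 in wild type, 8.45 and 4.87 in knockout, and 6.06 and 5.67 in knockdown, while Epcam stayed between 4.41 and 4.72. The part of such cells in the Plaur result was not tested.

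The sequence upstream of Plaur is shown because this gene separated the knockdown clones, beside that of Anxa2, another surface receptor gene, which did not. RefSeq entries (GRCm38.p6) were found for 5 of the 10 genes: Plaur, Serpinb2, Serpinf2, Anxa2 and Lrp1. Each window holds the 250 bases before the annotated start, on the plus strand at chr7:24462233-24462482 for Plaur and chr9:69453433-69453682 for Anxa2. Capitals mark the AP-1 motif TGACTCA or its reverse complement TGAGTCA, a site for Fos and Jun factors.
Plaur: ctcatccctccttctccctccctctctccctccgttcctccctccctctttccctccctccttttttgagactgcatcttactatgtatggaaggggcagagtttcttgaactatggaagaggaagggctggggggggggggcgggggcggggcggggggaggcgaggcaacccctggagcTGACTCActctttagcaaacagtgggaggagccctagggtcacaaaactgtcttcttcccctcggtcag
Anxa2: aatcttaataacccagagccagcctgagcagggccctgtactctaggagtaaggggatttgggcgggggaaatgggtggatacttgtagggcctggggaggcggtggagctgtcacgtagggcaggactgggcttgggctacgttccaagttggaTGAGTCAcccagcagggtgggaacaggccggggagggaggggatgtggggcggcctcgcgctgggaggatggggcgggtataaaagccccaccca

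Both windows hold 1 AP-1 match, whose first base lies 69 bases before the start in Plaur and 95 in Anxa2. Across 32851 RefSeq promoter windows of the same length, 4.46% held this motif on either strand. Both also hold 3 matches of the GC box GGGCGG, found with its reverse complement CCGCCC in 32.7% of windows. None of these matches overlaps the AP-1 match, though 2 in Plaur overlap each other. The TATA motif TATAAA, searched with TTTATA, occurs in 12.4% of windows; Anxa2 has 1 match, as does each Serpinb2 window, and Plaur has 0. These matches describe letters in a window. The windows of Serpinb2 (2 starts), Serpinf2 and Lrp1 hold no AP-1 match.

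Anxa2 and S100a10, whose proteins form the membrane heterotetramer, were nearly level across the arrays. Anxa2 stood at 11.45, 11.57 and 11.47 in wild type, 11.72 and 11.53 in knockout, and 11.53 and 11.28 in knockdown. S100a10 stood at 12.10, 11.95 and 11.92, at 12.26 and 11.98, and at 11.88 and 11.91 in the same order. For both genes the highest array was knockout array 1, and the whole range over 7 arrays was 0.44 and 0.38. The differences were small and alike in the pair: 0.13 ± 0.109 (SE) for Anxa2 and 0.13 ± 0.109 for S100a10 in knockout, and -0.09 ± 0.109 and -0.10 ± 0.109 in knockdown. Limma adjusted p lay between 0.629 and 0.745 in these 4 tests. The 95% confidence intervals allow at most a 1.32-fold change for either gene in either deficient group. Over the 7 arrays the signals of the pair correlated at a Pearson r of 0.61, given as a description only, since the arrays share their groups.

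Lrp1, the endocytic receptor that clears activators from the surface, ranged from 9.63 to 10.00 in wild type. It stood at 9.38 and 9.70 in knockout and at 9.84 and 9.59 in knockdown. Each deficient group had 1 array inside the wild-type range and 1 below it. The difference was -0.26 ± 0.157 (SE, limma adjusted p = 0.531) in knockout and -0.09 ± 0.157 (0.852) in knockdown, within the spread between clones.

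Among the inhibitors, Serpinb2, which encodes plasminogen activator inhibitor type 2, was lower on every deficient array. It stood at 4.61, 4.87 and 4.75 in wild type, 4.54 and 4.24 in knockout, and 4.54 and 4.27 in knockdown. The groups did not overlap, but all values lay below the array medians and between the 29th and 40.2th percentile of probe sets. The difference was -0.35 ± 0.141 (SE) in knockout and -0.34 ± 0.141 in knockdown, and did not pass (limma adjusted p = 0.381 and 0.365). Without the array numbered 2 of the group, each was at -0.20. Knockout array 1 and knockdown array 1 held the identical value of 4.54302, so these like differences come from tied values. Both groups together gave -0.34 ± 0.118 (SE, limma adjusted p = 0.343), a 1.27-fold lower signal.

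Serpinf2, the gene of alpha-2-antiplasmin, the main fast inhibitor of plasmin in blood, did not follow tenascin-C. Its wild-type signals of 5.70, 5.70 and 6.14 enclosed 3 of the 4 deficient values, 5.77 in knockout and 5.99 and 5.79 in knockdown, with knockout array 2 just below at 5.64. The differences were -0.15 ± 0.16 (SE, limma adjusted p = 0.721) and 0.04 ± 0.16 (0.941).

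Serping1, the gene of the C1 inhibitor, a serpin that controls complement and contact-phase proteases and also binds plasmin and tissue activator, had the largest SE of the 10 genes. It stood at 6.09, 6.07 and 7.03 in wild type, 6.00 and 5.73 in knockout, and 6.12 and 5.30 in knockdown. Wild-type array 3 stood 0.91 above the next array, and knockdown array 2 stood lowest. The differences of -0.53 ± 0.371 (SE) in knockout and -0.69 ± 0.371 in knockdown did not pass (limma adjusted p = 0.575 and 0.474). Without wild-type array 3 they were -0.21 and -0.37, and without knockdown array 2 the knockdown value was -0.28, so single arrays set much of their size.

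**Figure D2:**
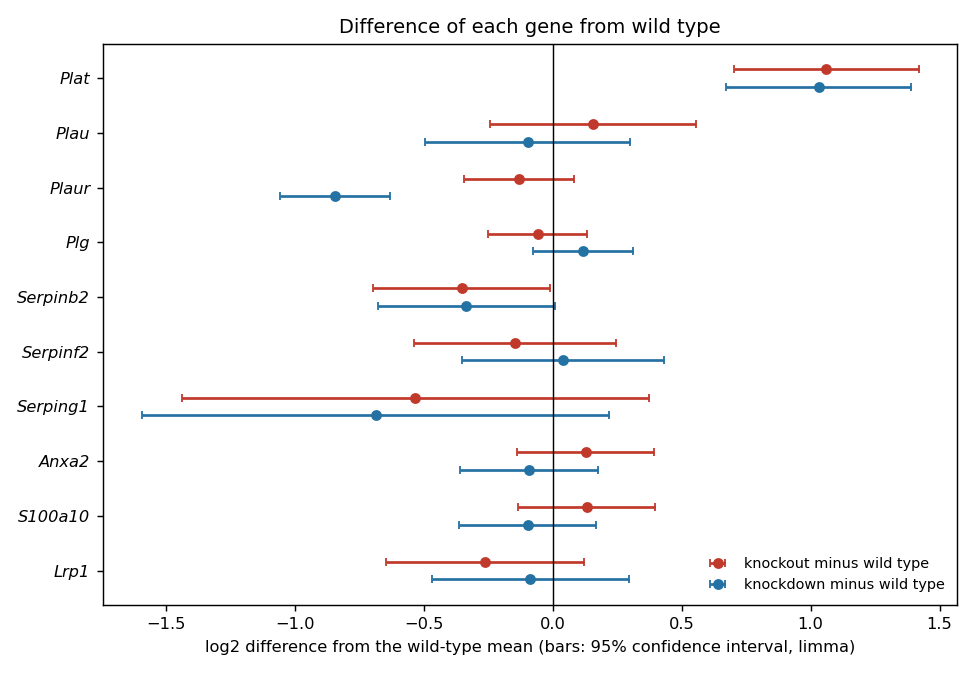
Log2 difference of each gene from the wild-type mean (horizontal axis) in knockout and knockdown; points are group differences over 2 against 3 arrays and bars are 95% confidence intervals from limma. The intervals of Plat lie above 0 in both groups, that of Plaur lies below 0 in knockdown only, that of Serpinb2 ends at -0.01 in knockout, and the others include 0.

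Counted over the 10 genes, which were chosen with earlier results of these data known, few separations stood beyond the background of all genes. In knockout, 0 of 10 passed at an adjusted p under 0.05 by limma, the only tool run, against 0.167% of all genes (0.119% or 20 genes higher and 0.0476% or 8 lower; 61 higher and 10 lower after centring). An unadjusted p under 0.05 was reached by 2 of 10, Plat (higher) and Serpinb2 (lower), against 12.8% of all genes, 7.33% higher and 5.5% lower. Arrays of knockout and wild type did not overlap for 4 of 10, against 28.5% of all genes: Plat was higher (13.2% of all genes), and Plaur, Serpinb2 and Serping1 were lower (15.3%). By sign alone 4 of 10 were higher, beside 42.6% of all genes, and the median difference was -0.10 beside -0.03.

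In knockdown, again 0 of 10 passed by limma, against 0.0179% of all genes, all of them lower. An unadjusted p under 0.05 was reached by Plat (higher) and Plaur (lower), 2 of 10 against 14.1%, which splits into 7.12% higher and 6.99% lower. Arrays of knockdown and wild type did not overlap for 5 of 10, against 30.5%: Plat and Plg were higher (17.5% of all genes), and Plaur, Serpinb2 and S100a10 were lower (12.9%). By sign alone 3 of 10 were higher, beside 56.8% of all genes, and the median difference was -0.09 beside 0.03.

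With both deficient groups set against wild type (4 against 3 arrays), limma passed 0 of 10 and 0.0298% of all genes (0.0179% higher, 0.0119% lower). An unadjusted p under 0.05 was reached by 3 of 10 against 12.3%: Plat was higher (6.48% of all genes), and Plaur and Serpinb2 were lower (5.78%). The arrays of these 3 genes did not overlap either, against 7.7% of all genes (4.15% higher and 3.55% lower). By sign alone 5 of 10 were higher, beside 50.1%. Both deficient groups are compared with the same 3 wild-type arrays, so their like values for Plat and Serpinb2 are not independent evidence.

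Between knockout and knockdown, limma passed 0 of 10 and 0.375% of all genes (0.274% higher and 0.101% lower in knockout). Plaur, higher in knockout, was the only one of 10 at an unadjusted p under 0.05, against 17.9% of all genes, 9.05% higher and 8.87% lower. Arrays did not overlap for 5 of 10, against 45% of all genes: Plau, Plaur and S100a10 were higher in knockout (17.8%), and Plg and Serpinf2 were lower (27.2%). By sign alone 6 of 10 were higher in knockout, beside 40% of all genes.

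The other genes of the pathway were taken from 6 lists. No member of any list passed the limma test over all genes in any of the 4 comparisons. Counts at an unadjusted p under 0.05 are given instead for knockout and knockdown, to be read against the 12.8% and 14.1% of all genes.

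The list of further inhibitors was led by Serpinb8 and Serpinb9, intracellular clade B serpins and relatives of Serpinb2. That these serpins act on plasmin or its activators is not shown here. Of 5 tested genes, 4 were higher and 1 lower in knockout (median 0.67) and likewise 4 and 1 in knockdown (median 0.15), with 2 higher at an unadjusted p under 0.05 in each. Serpinb8 stood at 5.62, 6.84 and 5.74 in wild type, 7.75 and 8.02 in knockout, and 6.94 and 7.73 in knockdown. No wild-type array reached a deficient one, although wild-type array 2 came within 0.10 of knockdown array 1. The Serpinb8 difference was 1.81 ± 0.419 (SE, limma adjusted p = 0.177) in knockout and 1.27 ± 0.419 (0.275) in knockdown. Serpinb9, an inhibitor of granzyme B, stood at 5.06, 6.29 and 5.41 in wild type, at 7.27 and 6.51 in knockout and at 6.49 and 7.01 in knockdown, again with wild-type array 2 the nearest. Its differences were 1.30 ± 0.416 (SE, adjusted p = 0.294) and 1.17 ± 0.416 (0.306), and its close mouse paralogues could share probe signal. Both relatives thus lay higher on the arrays where Serpinb2 lay lower, and none of the 3 passed.

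Partners of the urokinase receptor were mostly integrins. In knockout 9 of 10 were higher (median 0.46), 3 of them at an unadjusted p under 0.05 and 5 without overlap, against 13.2% of all genes higher without overlap; in knockdown 7 of 10 were higher (median 0.08), with 0 at an unadjusted p under 0.05. Itga5, the fibronectin receptor alpha chain, stood at 8.30, 9.08 and 8.99 in wild type, 10.35 and 10.41 in knockout, and 8.94 and 8.90 in knockdown. Itgb5, a partner of the alpha-v chain in binding vitronectin, stood at 9.47, 9.73 and 9.98, then 10.85 and 10.84, then 10.11 and 9.81. For both genes the knockout arrays were clear of all others and the knockdown arrays lay in or near the wild-type range. The knockout difference was 1.59 ± 0.234 (SE, limma adjusted p = 0.0784) for Itga5 and 1.12 ± 0.166 (0.0798) for Itgb5. Without wild-type array 1 Itga5 passed at 1.34, as it did at 1.59 among genes above the array median, and Itgb5 passed at 1.16 after centring. The gap between knockout and knockdown, looked at after these values were seen, was 1.46 ± 0.256 (adjusted p = 0.0865) for Itga5 and 0.88 ± 0.182 (0.111) for Itgb5. Without wild-type array 1 it passed for Itga5 (adjusted p = 0.0288). In knockdown the 2 genes of smallest p were Itgb3, a beta chain that also binds vitronectin, at 0.75 ± 0.369 (0.432), and Itga3, a laminin receptor chain, at -1.22 ± 0.615 (0.444). Itga3 rested in part on wild-type array 1, without which it was at -0.64.

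Surface binding and endocytic partners were higher for 7 of 12 genes in knockout (median 0.25), where 1 gene reached an unadjusted p under 0.05 in each direction, and 9 of 12 in knockdown (median 0.23), with 1 lower at that level. With both groups together 11 of 12 were higher (median 0.22), beside 50.1% of all genes, and 1 in each direction reached that level, against 12.3%. Some of the 11 were nearly level, as Sorl1 with means of 5.5613 in deficient and 5.5609 in wild-type arrays. So counted, 3 of 5 further inhibitors, 8 of 10 urokinase receptor partners and 10 of 15 substrates were higher. The C1 inhibitor list had 3 of 8 higher and the annexin and S100 relatives 9 of 15. Lrp8, an LDL-receptor relative of Lrp1, was lower without overlap in both deficient groups: 8.45, 8.16 and 8.09 in wild type, 7.88 and 7.93 in knockout, 7.67 and 7.55 in knockdown. Its difference was -0.33 ± 0.121 (SE, limma adjusted p = 0.351) and -0.62 ± 0.121 (0.162). Vldlr, which takes up urokinase complexes, was at 1.52 ± 0.594 in knockout (0.374) and overlapped wild type, and Lrp5, a Wnt co-receptor, was at 0.60 ± 0.249 in knockdown (0.358). Vldlr was at 0.94 without knockout array 2, and Lrp5 at 0.37 without wild-type array 1. The plasminogen receptor gene Plgrkt ranged from 5.83 to 6.80 with overlap of all 3 groups.

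Substrates of plasmin and of the activators split in both directions. In knockout 7 of 15 were higher and 8 lower (median -0.02), of which 3 and 2 reached an unadjusted p under 0.05, and in knockdown 10 were higher and 5 lower (median 0.18) with 0 at that level. Fn1, the fibronectin gene, was higher without overlap in both, at 11.64, 12.21 and 11.89 in wild type, 12.43 and 12.49 in knockout, and 12.22 and 12.32 in knockdown. Its differences were 0.54 ± 0.165 (SE, limma adjusted p = 0.27) and 0.36 ± 0.165 (0.406). Lamc1, a laminin chain gene, was at 0.55 ± 0.202 in knockout (0.348) and Thbs1, the gene of thrombospondin-1, at -0.31 ± 0.157 in knockdown (0.448). Lamc1 was at 0.29 without knockout array 2, Thbs1 at -0.19 without wild-type array 3, and Fn1 in knockdown at 0.22 without wild-type array 1. Mmp3, the stromelysin-1 gene, showed how far clones of a group could part, at 4.70 and 9.68 on the 2 knockout arrays; it was named after its values were seen.

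Proteases that the C1 inhibitor targets, listed with the kinin receptors Bdkrb1 and Bdkrb2 downstream of them, were lower for 6 of 8 genes in knockout (median -0.25) and higher for 6 of 8 in knockdown (median 0.11), with 0 at an unadjusted p under 0.05 in either. Bdkrb1, a kinin receptor gene, was at -1.04 ± 0.428 (SE, limma adjusted p = 0.39) in knockout, and C1ra, a complement protease gene, at -0.44 ± 0.2 (0.431). Single arrays moved both: C1ra was at -0.15 without knockout array 1, and Bdkrb1 at -0.67 without wild-type array 3. In knockdown C1ra was at 0.37 ± 0.2 (0.476) and F12, the contact factor XII gene, at 0.18 ± 0.0929 (0.448), C1ra being at 0.21 without knockdown array 2. With both groups together Bdkrb2 stood at -0.11 ± 0.147 (0.798) and Bdkrb1 at -0.25 ± 0.358 (0.816).

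Annexin and S100 relatives of Anxa2 and S100a10 were higher for 10 of 15 genes in knockout (median 0.21), 3 of them at an unadjusted p under 0.05, and lower for 11 of 15 in knockdown (median -0.08), 1 of them at that level. Anxa1 was at 0.62 ± 0.169 (SE, limma adjusted p = 0.223) and S100a4, a fibroblast S100 gene, at 0.53 ± 0.158 (0.259) in knockout. In knockdown Anxa3 was at -0.32 ± 0.113 (0.303) and Anxa5 at -0.22 ± 0.126 (0.498). With both groups together S100a16 was at 0.39 ± 0.19 (0.471) and overlapped wild type. Without knockdown array 1 Anxa3 was at -0.17, without wild-type array 1 Anxa5 was at -0.13, and without knockout array 1 S100a16 was at 0.22. Anxa2 and S100a10 had the same signs as their list medians in both groups, at smaller size in knockout and slightly larger size in knockdown.

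**Figure D3:**
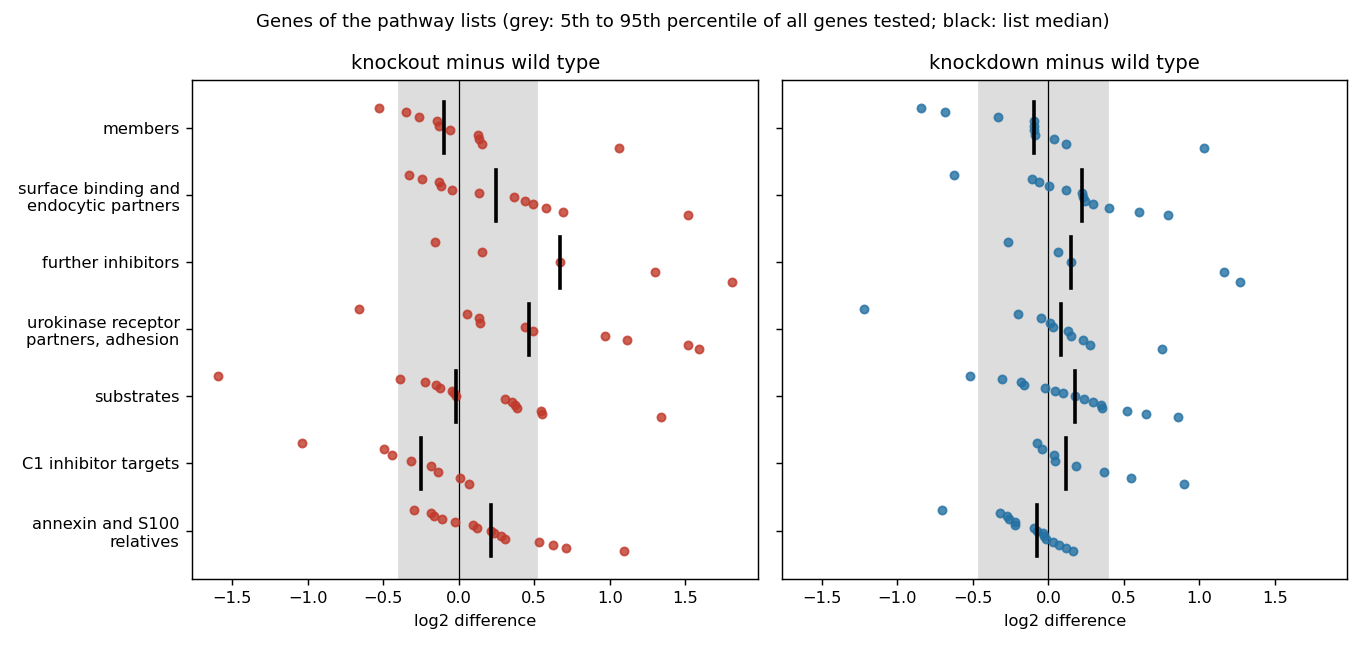
Log2 difference from wild type (horizontal axis) of each tested gene of the 10 members and the 6 pathway lists, in knockout and knockdown; each point is 1 gene, black bars are list medians and the grey band runs from the 5th to the 95th percentile of all genes tested. In knockout the adhesion list has its median at 0.46, against 0.08 in knockdown, and most members lie inside the band in both groups.

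The genes whose pattern over the 7 arrays was most like that of Plat, out of 16800 others, were Rcor2 (Pearson r = 0.98), Ehmt1 (0.98), Lmf2 (0.96), Zfp385a (0.96) and Phkg2 (0.96). All 5 were higher on the 4 deficient arrays than in wild type, by 0.36 to 0.58 in knockout and 0.34 to 0.48 in knockdown, smaller than the differences of Plat. For Plaur they were Usp31 (0.99), Msl2 (0.98), Nop2 (0.98), E2f4 (0.98) and Zik1 (0.98). These lay lower in knockdown, by -1.04 for Usp31 and by -0.42 to -0.63 for the other 4, and by -0.07 to -0.17 in knockout. None of these 10 genes passed the limma test in any comparison, and with 7 arrays in 3 groups these correlations are a description only.

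**Figure D4:**
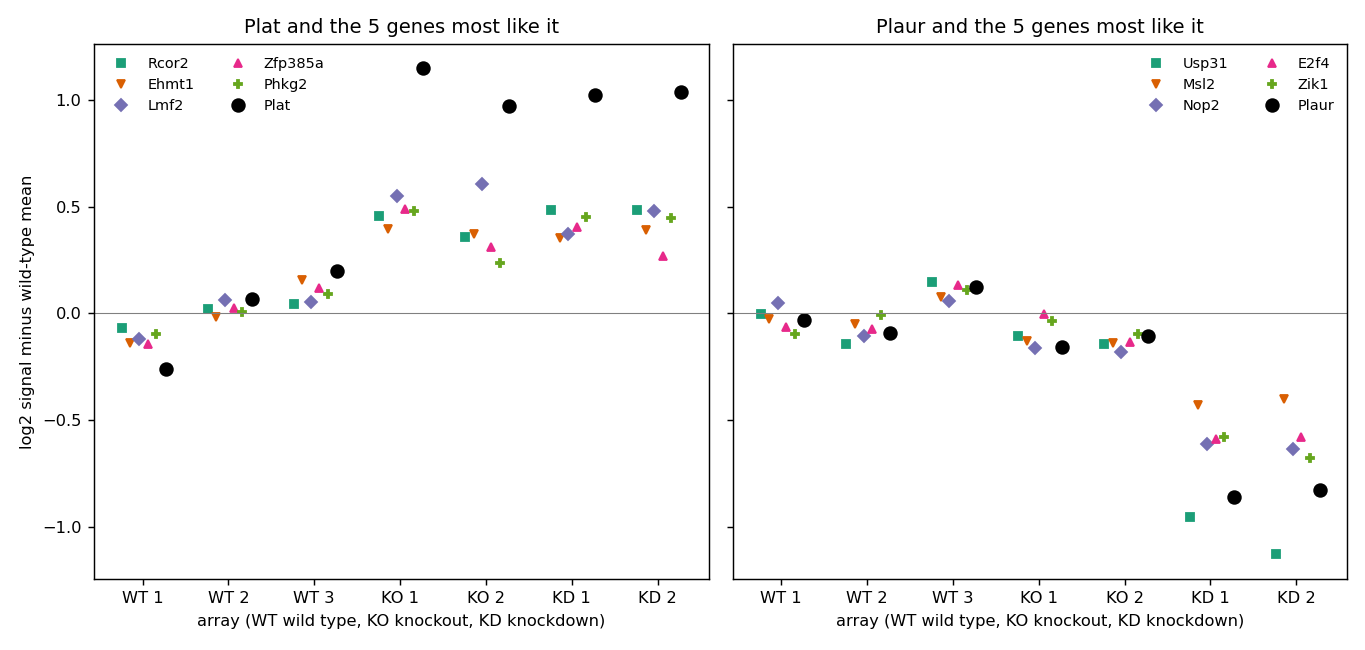
Log2 signal minus the wild-type mean (vertical axis) on each array for Plat (left) and Plaur (right) with the 5 genes of highest Pearson correlation; each symbol is 1 gene. Plat and its 5 genes lie above all their wild-type values on the 4 deficient arrays, and Plaur and its 5 genes are lowest on the knockdown arrays.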

How the data were processed

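Total RNA of 7 cultures was hybridised to Affymetrix whole-transcript arrays, 1 array per clone. The deposited table holds log2 signals, 1 column per array; the submitters' processing notes name affy and R 2.8.0, and no source used here gives the summarisation, background correction or normalization. That the deposited values are log2 was inferred from their range (1.81 to 13.7); array medians lay between 5.38 and 5.49.

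Probe sets were named from the platform annotation: of 34760, 21640 carried 1 symbol, 1321 several, and 11799 were not listed. A gene with several probe sets was represented by the one of highest mean. The 10 members matched RefSeq by gene identifier. Genes above the array's 25th percentile on at least 2 arrays were tested (16801) with limma 3.58.1 in R 4.3.3: a mean for each of 3 groups over all 7 arrays, no covariates, moderated two-sided tests, Benjamini-Hochberg adjustment over all genes tested, and a call at an adjusted p under 0.05. The script was tested on simulated data. The number of arrays limits precision.

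The members and lists were chosen with earlier results of these data known. The naming rule covered all members, Tnc, the 2 genes of smallest p of each list per comparison with wild type, and the 5 genes most correlated with Plat and with Plaur. Plgrkt, Sorl1, Mmp3, single cell type markers and sex-linked genes were named outside this rule. Alternatives covered filters, scaling, probe sets, weights, arrays and a replicate block. Deviations from the group mean on same-numbered arrays correlated at r = 0.20 for wild-type array 2 and knockdown array 2. The other pairs lay between -0.07 and 0.002. In a group of 2 arrays the deviations mirror each other, so these values cannot decide whether the numbers pair the clones. Listed genes without a value are not analysed here.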

Additional observations from a re-analysis of the deposited data

How the results depend on the processing

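Each comparison was refitted under 17 alternatives. The counts of genes called moved widely, and the cause was not tested beyond the fewer arrays or genes that a setting itself leaves. In knockout, 28 genes became 79 with the stricter filter (above the array median), 45 with quantile normalization, 71 with centring, 6 with only the compared groups, 1 without both deficient arrays numbered 2, and 3 (without wild-type array 3) to 71 (without knockout array 2) when single arrays were left out. In knockdown, 3 became 0 with only the compared groups, 0 without both arrays numbered 2, and 0 to 0 over single omissions. For both groups together, 5 became 10 with the stricter filter, 8 with array weights, 0 without both arrays numbered 2, and 0 to 5 over omissions. Between knockout and knockdown, 63 became 38 with no filter, 111 with the stricter filter, 100 with quantile normalization, 137 with centring, 0 with only the compared groups, 18 with array weights, 26 with an intensity trend, 1 without both arrays numbered 2, and 0 (without knockdown array 2) to 103 (without knockout array 2) over omissions. Of the 10 members, 1 was called in knockout with the stricter filter and 1 with centring (Plat), and likewise 1 and 1 between knockout and knockdown (Plaur); all other settings gave 0.

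With the replicate block, which here gives these genes the same differences as leaving out wild-type array 3, the counts were 2 in knockout, 0 in knockdown, 0 for both groups and 2 between knockout and knockdown. The block also turned small differences: Serpinf2 in knockout to 0.000694, and for both groups Plau to -0.055, Serpinf2 to 0.093, S100a10 to -0.015 and Bdkrb1 to 0.12. It changed no call of a member, and it ended the Tnc calls in knockout and knockdown (limma adjusted p = 0.274 and 0.286).

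Other settings changed these signs. Without both arrays numbered 2, Anxa2 (0.032) and Lrp1 (0.039) turned in knockdown, Serpinf2 (0.029) and Bdkrb2 (0.048) for both groups, and Serping1 (-0.12) between knockout and knockdown. Array weights turned Plau (-0.11), Serpinf2 (0.015) and Anxa2 (-0.016) for both groups. Between knockout and knockdown, quantile normalization turned Plat (-0.044) and Serpinb2 (0.057), and centring Serpinb2 (0.060). Leaving out single arrays gave ranges in knockout of -0.22 to 0.00069 for Serpinf2, -0.0079 to 0.27 for S100a10. Leaving out single arrays gave ranges in knockdown of -0.060 to 0.19 for Serpinf2, -0.21 to 0.039 for Lrp1, -0.18 to 0.064 for Plau, -0.22 to 0.032 for Anxa2. Leaving out single arrays gave ranges for both groups of -0.055 to 0.19 for Plau, -0.045 to 0.080 for Anxa2, -0.012 to 0.071 for Plg, -0.052 to 0.088 for S100a10, -0.13 to 0.093 for Serpinf2, -0.61 to 0.12 for Bdkrb1, -0.25 to 0.029 for Bdkrb2. Leaving out single arrays gave ranges between knockout and knockdown of -0.058 to 0.12 for Plat, -0.17 to 0.14 for Serpinb2, -0.25 to 0.56 for Serping1. Plat and Plaur kept their signs against wild type in every setting run. The array number limits precision, and Plg and Serpinb2 lay near background.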
